A study of Equus caballus with 24 samples.

Results

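Adult pituitary was compared with adult long bone in 2 horse breeds, the Debao pony (DP), a small pony, and the Mongolian horse (MH). The comparison took 12 of the 24 RNA-seq libraries of the series, chosen by their labels: 3 pituitary libraries of adult DPs (DPPA1 to DPPA3), 3 of adult MHs (MHPA1 to MHPA3), 3 long bone libraries of adult DPs (DPLBA1 to DPLBA3) and 3 of adult MHs (MHLBA1 to MHLBA3). All horses were healthy females sampled at a slaughterhouse, no treatment is named, and adult means over 3 years of age. The bone pieces were the ends of long bones, so that cartilage, marrow and fat could enter them with the bone, and both tissues came from the same horses, although the labels do not say which pituitary library belongs to which bone library. Of 24232 genes in the read table, 15092 had enough reads in enough libraries to be tested. Fold changes are given as log2 of pituitary over long bone with a standard error derived from edgeR's quasi-likelihood test. The fit held breed as a covariate. A gene was called when its Benjamini-Hochberg adjusted p was below 0.05 and its fold change above 2. Levels are given in CPM, reads scaled to the size of the library, with the trimmed mean of M-values (TMM).

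The pituitary is 2 organs in one in its origin. The anterior lobe, from oral ectoderm, holds the cells that secrete growth hormone, prolactin, the adrenocorticotropic precursor and the glycoprotein hormones, each under a releasing or inhibiting signal of the hypothalamus. The posterior lobe, from the brain floor, holds axon endings and the glia called pituicytes. Long bone ends hold osteoblasts and the osteocytes they become, bone-resorbing osteoclasts, cartilage, and a marrow of blood-forming cells and fat. The tissues meet in the growth hormone axis, in which the hormone made in the pituitary binds a receptor on bone and liver cells, signals through JAK2 and STAT5 and raises local IGF1.

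The libraries held 14006324 to 23573036 reads on genes in pituitary and 11616518 to 27007342 in long bone. The first principal component carried 56.7% of the variance and separated the tissues, and log expression correlated at 0.827 to 0.972 within pituitary, 0.821 to 0.965 within long bone and 0.650 to 0.765 between them. Not all libraries showed the tissue on their label in full. The 6 anterior hormone genes summed to 59.9 CPM in DPPA1 and 1.1 CPM in MHPA1, against 12953 to 27349 CPM in the other 4 pituitary libraries. Astrocyte and pituicyte genes stood at 10674 and 7914 CPM in these libraries against 142 to 585 CPM in the other 4, and myelin genes at 4185 and 18299.9 CPM against 102 to 226 CPM. MHLBA1 held 15 pancreas genes at 335519 CPM in sum, 20.1% of its reads, against at most 20.6 CPM in every other library. Where leaving out these 3 libraries changes the call of a named gene or moves a list's count of calls by over 1.5 times, the result is also given over the other 9, an alternative chosen after the data were seen. Since DPPA1 and MHPA1 were set apart by hormone and glial genes, results of such genes over the 9 libraries follow partly from that choice. A gene read in only 1 tissue passed the read filter through that tissue, so its direction was bound to follow, and counts and medians of lists that hold such genes are descriptions.

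**Figure D1:**
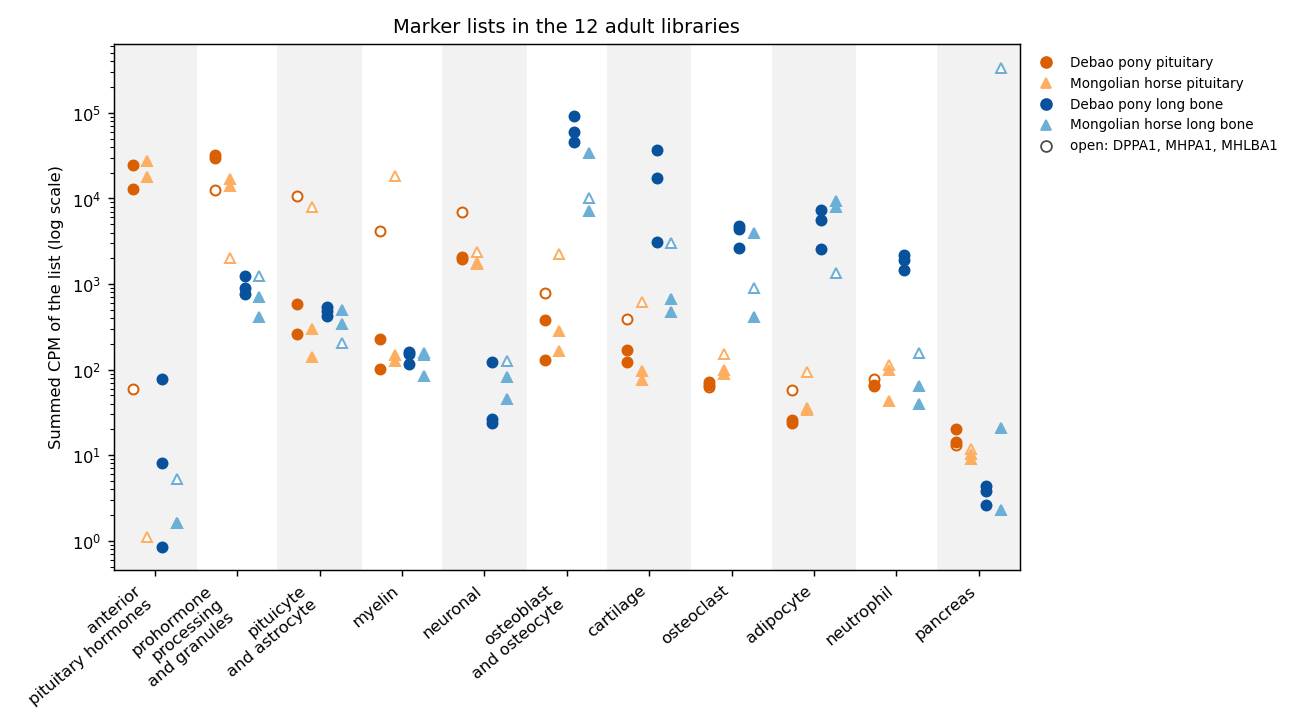
Summed CPM (log scale) of 11 marker lists, 1 point per library, coloured by tissue and breed, with DPPA1, MHPA1 and MHLBA1 drawn open. The 4 filled pituitary points lie between 12953 and 27349 CPM for the anterior hormones while the open ones lie at 59.9 and 1.1 CPM, and 1 open long bone point stands at 335519 CPM for the pancreas genes.

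The 2 tissues differed in a large share of the genes. Of 15092 genes, 2588 (17.1%) were called higher in pituitary and 2198 (14.6%) higher in long bone, 31.7% together, and 4697 had a 95% interval of the log2 fold change inside -1 to 1. The larger differences lay more often on the pituitary side, where 1182 called genes passed an absolute log2 fold change of 3 against 571 in long bone. All 6 pituitary libraries lay above all 6 bone libraries for 1783 genes (11.8%), 1573 of them called (10.4%), and the reverse held for 1267 genes (8.4%), 1103 of them called (7.31%). Without TMM scaling the median of all genes moved from 0.02 to 0.26 and the share of calls on the pituitary side from 54.1% to 64.9% (21.2% of all genes higher in pituitary and 11.5% in long bone). With limma on log2(RPKM + 1) that share was 63.1%, and with a pseudocount of 0.1 it was 63.7%. Over the 9 libraries 2809 genes (18.5%) were higher in pituitary and 2721 (17.9%) in long bone, 36.5% together, and 4291 of the 4786 calls, or 89.7%, were kept, all with the same sign. The 9 libraries are part of the 12, so a large overlap was bound to follow and is no replication.

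**Figure D2:**
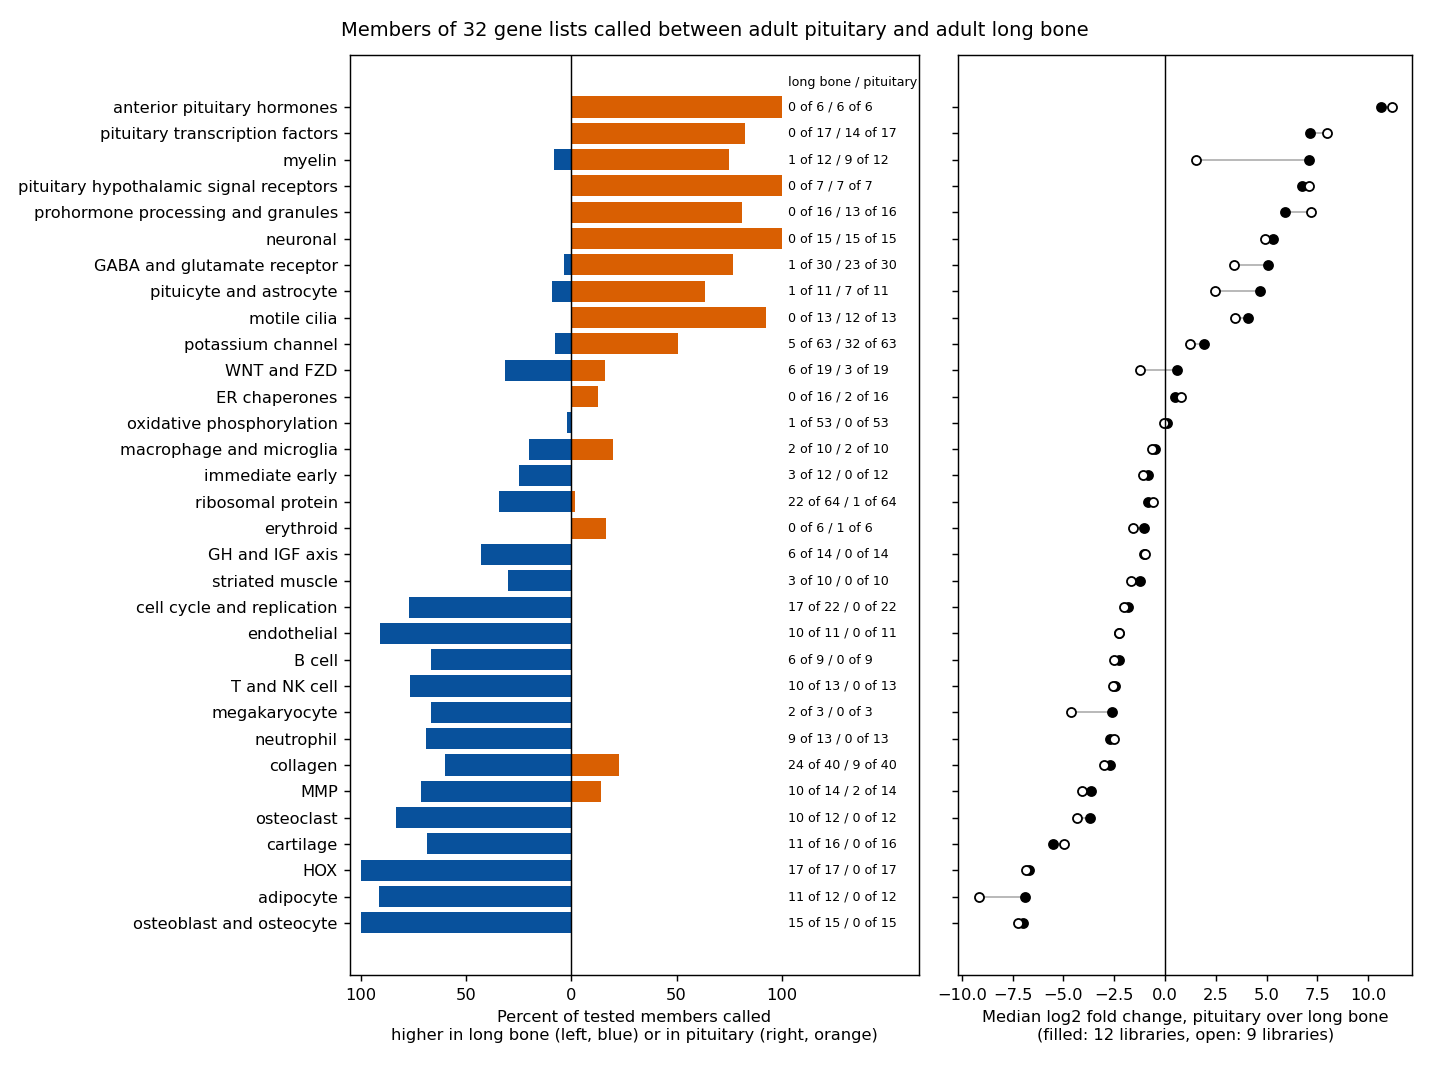
Left, percent of the tested members of 32 gene lists called higher in long bone (blue, to the left) or in pituitary (orange, to the right), with the counts. Right, the median log2 fold change of each list over all 12 libraries (filled) and over 9 (open). At the extremes stand 6 of 6 anterior hormone genes higher in pituitary at a median of 10.61 and 15 of 15 osteoblast and osteocyte genes higher in long bone at a median of -6.97.

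The genes for the anterior pituitary hormones had the highest median fold change of the lists with more than 1 tested gene. All 6 were called higher in pituitary, with a median log2 fold change of 10.61 beside 0.02 over all genes, yet none separated the libraries fully, since MHPA1 was at bone level. In DPs alone 3 of 4 tested were called and in MHs alone 0 of 2, beside 17.3% and 8.13% of all genes. GH, growth hormone, stood at 0.344 to 11659.5 CPM with a median of 6068 in pituitary. In long bone it stood at 0.147 to 24 CPM with a median of 1.45. DPPA1 and MHPA1 were the low pituitary libraries, at the level of bone, and the other 4 lay above every bone library. The log2 fold change was 10.78 ± 2.45 (edgeR, Benjamini-Hochberg adjusted p = 0.0043). Over the 9 libraries it was 11.61 ± 1.62, where a smaller spread was bound to follow, because the libraries low in hormone genes were left out. In MHs alone GH had a log2 fold change of 12.41 without a call (edgeR, Benjamini-Hochberg adjusted p = 0.053). PRL, prolactin, ranged from 0.481 to 11663 CPM in pituitary and from 0.101 to 9.86 CPM in bone (10.74 ± 2.54). POMC, the precursor of adrenocorticotropin, ranged from 0.137 to 10649 CPM against 0 to 39.2 CPM (10.61 ± 2.91, adjusted p = 0.012). It had no call in DPs alone (8.34). The highest bone value of GH, PRL and POMC was in DPLBA3 each time. The alpha subunit shared by the glycoprotein hormones, listed as CG, reached 2333 CPM (9.67 ± 1.70) and FSHB, the follicle-stimulating beta subunit, 233 CPM (10.61 ± 2.08). TSHB, the thyrotropin beta subunit, had 1067 reads in pituitary and none in bone, a fold of at least 326. In a tissue piece, fewer cells of a type and less RNA per cell cannot be told apart, here and in every list that follows.

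Transcription factors of pituitary lineages followed the hormones. Of 17 tested, 14 were called higher in pituitary and none in long bone, at a median of 7.13, and over the 9 libraries 18 of 19 were called. POU1F1, which sets the somatotroph, lactotroph and thyrotroph lineages, was at 0 to 237 CPM with a median of 100.4 in pituitary and at most 0.336 CPM in bone (9.86 ± 1.93, adjusted p = 0.0017). TBX19, the corticotroph factor, reached 260.4 CPM (8.06 ± 1.80) and SF-1, the gonadotroph factor also called NR5A1, 25.0 CPM (7.75 ± 1.33). LHX3, a factor of the early gland, had a log2 fold change of 8.82 ± 1.42. In each of these 4 genes MHPA1 was the lowest pituitary library, at 0.137 CPM or less. A pair of factors behaved differently. SOX2, a factor of stem and glial cells, stood at 9.29 to 48.0 CPM with a median of 23.8 in pituitary against at most 0.123 CPM in bone (9.25 ± 0.67, adjusted p = 4.5e-06). OTX2 stood at 2.54 to 144 CPM against at most 0.112 CPM (9.30 ± 1.12, adjusted p = 7.8e-05). For both genes all 6 pituitary libraries lay above all 6 bone libraries, and the highest values were in DPPA1 for SOX2 and in MHPA1 for OTX2.

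The receptors through which the hypothalamus controls the gland were all higher in pituitary, 7 of 7 tested, with a median of 6.75, while 4 of the 11 had too few reads for a test. GHRHR, the receptor of growth hormone-releasing hormone, stood at 0.0687 to 144 CPM with a median of 69.1 in pituitary and at no more than 1.23 CPM in bone (8.18 ± 1.71, adjusted p = 0.0026). GHSR, the ghrelin receptor, had 455 reads in pituitary and none in bone and was at least 139-fold higher. DRD2, the dopamine receptor that restrains lactotrophs, reached 129 CPM (6.75 ± 1.33). The receptors of thyrotropin-, corticotropin- and gonadotropin-releasing hormone, TRHR, CRHR1 and GNRHR, had log2 fold changes of 7.40 ± 1.40, 6.37 ± 1.26 and 4.43 ± 1.26. These lists passed the read filter through their pituitary levels, so a difference was bound to appear in those tested.

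Hormone processing and secretory granule genes were called higher in pituitary in 13 of 16 cases, with a median of 5.91, and 5 of the 13 separated the libraries fully. CHGB, a granule matrix protein, stood at 60.7 to 13458 CPM with a median of 6192 in pituitary. In long bone it stood at 0.965 to 234 CPM with a median of 3.05 (7.61 ± 1.92, adjusted p = 0.0078). The low pituitary library was MHPA1 and the high bone library was MHLBA1, and over the 9 libraries the log2 fold change was 10.65 ± 1.14. The same bone library was the highest for CHGA at 124 CPM and for SCG2 at 84.2 CPM, both granule proteins, and for PCSK1, the prohormone convertase, at 10.4 CPM. SCG5, the chaperone of the second convertase, separated the tissues fully at 115 to 1264 CPM against 0.368 to 50.3 CPM (7.08 ± 1.55, adjusted p = 0.0034). SCG3 (5.99 ± 0.93) and RAB3B (6.16 ± 0.90), a granule protein and a small GTPase of exocytosis, also separated fully. The 3 genes not called were CPE, PAM and PTPRN2, which hold 316 to 1779 CPM, 46.1 to 889 CPM and 28.2 to 122 CPM in pituitary and are therefore not absent there. PTPRN2 was called without MHLBA1 (6.06) and over the 9 libraries (6.20), PAM without MHPA1 (1.02), and CPE without DPPA3, DPLBA2 or MHLBA2 (1.48 to 1.49). CPE lay close to the threshold over the 12 libraries, at 1.25 (edgeR, Benjamini-Hochberg adjusted p = 0.055). It was also called with DESeq2 (1.27), without TMM scaling (1.44) and with limma at both pseudocounts (1.35). PTPRN2 was called without TMM scaling (3.86) and with limma (4.00 and 4.87).

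**Figure D3:**
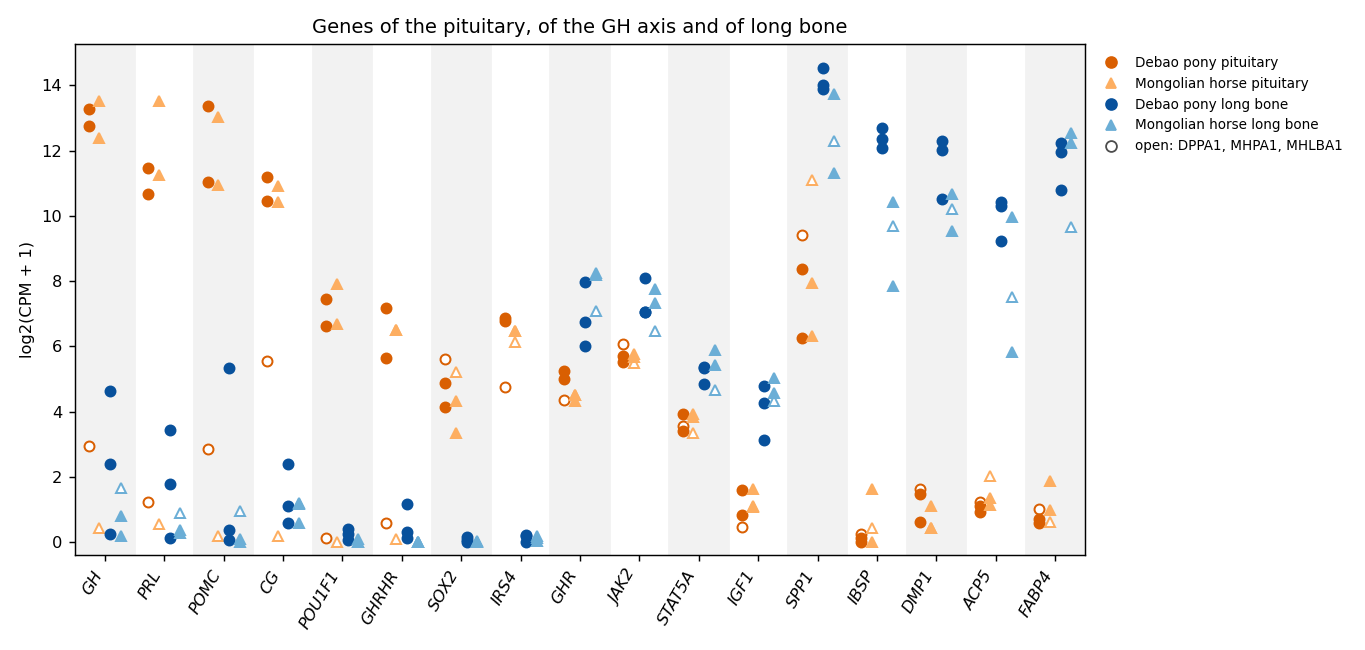
Level of 17 genes in each library as log2(CPM + 1), by tissue and breed, with DPPA1, MHPA1 and MHLBA1 drawn open. GH, PRL, POMC, CG, POU1F1 and GHRHR are low in both open pituitary libraries, SOX2 and IRS4 are high in all 6 pituitary libraries, and GHR, JAK2, STAT5A, IGF1, SPP1, IBSP, DMP1, ACP5 and FABP4 are higher in all 6 long bone libraries.

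Genes of neurons were higher in pituitary without exception, 15 of 15 called, 14 of them with no overlap, at a median of 5.34 and of 4.90 over the 9 libraries. SNAP25, of the machinery that fuses vesicles with the membrane, stood at 153 to 576 CPM in pituitary and 0.554 to 17.1 CPM in long bone (7.38 ± 0.97, adjusted p = 0.00014). NEFM, a neurofilament, had a log2 fold change of 7.30 ± 1.07 and ENO2, the neuronal enolase, of 5.34 ± 0.44. DPPA1 was the highest library for each of the 3, and its summed neuronal level of 6988 CPM was the highest of all. Endocrine cells share much of this machinery, and the 4 pituitary libraries rich in hormones still held 1699.7 to 2048 CPM of these genes in sum against 23.5 to 125 CPM in bone. Ion channel genes went the same way. Of 30 tested GABA and glutamate receptor genes 23 were higher in pituitary and 1 in long bone, at a median of 5.06, and 19 of 28 over the 9 libraries at a median of 3.39. GRIA2, a glutamate receptor subunit, stood at 42.5 to 222 CPM against 0.297 to 2.35 CPM (6.29 ± 0.55, adjusted p = 1.1e-05). GABRG1, a GABA receptor subunit, had a log2 fold change of 7.26 ± 0.64, and GABRQ, another subunit, had 707 reads in pituitary and none in bone and was at least 216-fold higher. GABRE went the other way, with 0 to 0.941 CPM in pituitary and 0.688 to 18.6 CPM in bone (-5.35 ± 1.16, adjusted p = 0.0033). Potassium channel genes divided further, with 32 of 63 higher in pituitary and 5 in long bone, and with 27 and 9 of 61 over the 9 libraries. Their summed level in bone was highest in MHLBA1, at 623 CPM. KCNC1 and KCNH2, channels that repolarise excitable cells, had log2 fold changes of 7.09 ± 0.57 and 5.41 ± 0.58, and KCNJ15, an inward rectifier, of -5.67 ± 0.99.

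Glial genes depended on DPPA1 and MHPA1. Of 11 astrocyte and pituicyte genes 7 were higher in pituitary and 1 in long bone at a median of 4.70, which became 5, 3 and 2.48 over the 9 libraries. GFAP, the glial filament, stood at 3.49 to 6708 CPM with a median of 48.5 in pituitary and at 0.504 to 7.28 CPM in bone (9.20 ± 2.25, adjusted p = 0.0065). It was not called without MHPA1 (7.38), nor over the 9 libraries (2.48 ± 1.25, adjusted p = 0.13). ALDH1L1, a folate enzyme of astrocytes, was higher in bone in all libraries at 147 to 286 CPM against 16.1 to 94.4 CPM (-1.81 ± 0.35, adjusted p = 0.0015). Of 12 myelin genes 9 were higher in pituitary at a median of 7.10, but DESeq2 called none of them and the 9 libraries gave 2 of 8 at a median of 1.51. PMP22, a peripheral myelin gene also active in bone, was the myelin gene called higher in long bone (-1.11 ± 0.41, adjusted p = 0.044), and its call was lost without any 1 of the 10 libraries other than DPPA1 and MHPA1, at log2 fold changes from -1.15 to -0.96. AVP, vasopressin, the 1 tested of 2 posterior lobe hormone genes, had 22927 reads in pituitary and 3 in bone, a ratio of 7012 with a 95% counting interval of 2399 to 34006. DPPA1 held 1070.5 CPM of it, while the pituitary median was 2.11 CPM. Without DPPA1 its log2 fold change was 5.68, and over the 9 libraries 5.75 ± 0.74.

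Motile cilia genes were also a feature of the pituitary libraries. Of 13 tested, 12 were called higher there, 10 with no overlap, at a median of 4.07 and of 3.44 over the 9 libraries. RSPH1, a radial spoke protein, stood at 30.3 to 99.5 CPM with a median of 57.1 against 0.371 to 1.46 CPM (6.03 ± 0.45, adjusted p = 4.7e-06), and DNAH5, a dynein motor, at 38.9 to 69.4 CPM against 0.184 to 2.32 CPM (6.0 ± 0.56, adjusted p = 1.7e-05). CCDC39, which spaces the dynein arms, reached 301 CPM in MHPA1, and the other pituitary libraries lay at 8.99 to 55.8 CPM (7.70 ± 0.92). MHPA1 also held 10651 CPM of choroid plexus genes, a ciliated epithelium of the brain, and their part in the cilia result was not tested.

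Several of the sharpest pituitary genes stood in no list. NNAT, neuronatin, an imprinted gene of endocrine and neural cells, stood at 72.3 to 5929 CPM with a median of 4921 in pituitary and at 0.201 to 26.0 CPM in bone (9.29 ± 1.60, adjusted p = 0.00079). IRS4, an insulin receptor substrate, stood at 25.9 to 117 CPM in pituitary and at most 0.168 CPM in bone (9.67 ± 0.58, adjusted p = 1.7e-06). IGSF1, a membrane glycoprotein of thyrotrophs, stood at 24.1 to 461 CPM against at most 1.29 CPM (9.61 ± 0.94). RPE65, the retinoid isomerohydrolase known from the eye, stood at 12.8 to 78.7 CPM against at most 0.0742 CPM (9.36 ± 0.65, adjusted p = 3.3e-06), and NRSN1, a neuronal vesicle protein, had 1830 pituitary reads and none in bone and was at least 559.7-fold higher. STMN4, a stathmin of neurons, stood at 422 and 859 CPM in DPPA1 and MHPA1 and at 2.30 to 11.3 CPM in the other 4. It had no call without MHPA1 (6.58), and its log2 fold change over the 9 libraries was 3.68 ± 0.94 (adjusted p = 0.0088). By RPKM, the level per kilobase of gene length, the highest genes called higher in pituitary with no overlap were mostly ubiquitous ones with small folds. They were COX3, MT-ND3, MT-ND4L and ND5 of the mitochondrial genome, CALM2, a calmodulin gene, YWHAE, an adaptor protein, PEBP1, a kinase inhibitor, NGFRAP1, SPARCL1, ATP1B1, SCG5 and NNAT. Leaving aside SCG5 and NNAT, their log2 fold changes ran from 1.04 for COX3 to 2.59 for SPARCL1, a matrix glycoprotein of brain, and 2.63 for ATP1B1, the sodium pump beta subunit. COX3, MT-ND3, CALM2 and YWHAE fell below a fold of 2 without DPPA1, at 0.84, 0.92, 0.87 and 0.90. Leaving out 1 other library ended the call of COX3 for MHPA1, DPLBA1, DPLBA3 and MHLBA2 (0.90 to 1.06), of MT-ND3 for DPLBA3 (0.84), of CALM2 for MHPA3 (0.97) and of YWHAE for DPLBA2 (0.92). Over the 9 libraries COX3 (0.68), CALM2 (0.87), YWHAE (0.92), MT-ND4L (0.97) and MT-ND3 were not called.

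On the bone side the genes of osteoblasts and osteocytes led. All 15 tested were called higher in long bone, 14 with no overlap, at a median of -6.97 and of -7.22 over the 9 libraries. Members such as MEPE and SOST passed the read filter through their bone levels, so their direction was bound to follow. MEPE, a matrix phosphoglycoprotein of osteocytes, stood at 359 to 2233 CPM with a median of 944 in bone. In pituitary it had 7 reads in all, or at most 0.206 CPM (-13.91 ± 1.00, adjusted p = 4.2e-06). IBSP, bone sialoprotein, stood at 230.1 to 6629.9 CPM against at most 2.13 CPM (-12.44 ± 1.68, adjusted p = 0.00017), with DPs above MHs in bone, at 4278 to 6629.9 CPM against 230.1 to 1359 CPM. DMP1, which controls mineral deposition around osteocytes, stood at 739 to 4972 CPM against 0.344 to 2.07 CPM (-11.06 ± 0.65, adjusted p = 1.7e-06). SOST, the osteocyte inhibitor of WNT signals, stood at 6.02 to 101 CPM against at most 0.235 CPM (-9.12 ± 0.90). Both main transcription factors of the lineage were among them, RUNX2 at 75.0 to 119 CPM against 1.62 to 5.85 CPM (-4.69 ± 0.38) and SP7 at -7.96 ± 1.14. BGLAP, osteocalcin, was the member whose libraries overlapped, since DPLBA2 had no read of it while the other bone libraries held 26.7 to 159 CPM (-6.97 ± 1.24). SPP1, osteopontin, which other cells also make, stood at 75.3 to 2205 CPM in pituitary and 2560.4 to 23757 CPM in bone (-4.37 ± 1.02), with MHPA1 the highest pituitary library. COL1A2, a chain of type I collagen, reached 69559 CPM in DPLBA2 (-8.63 ± 1.01), and SPARC, a collagen-binding glycoprotein, 10529.9 CPM (-4.34 ± 0.69).

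Cartilage genes were uneven between the bone libraries. Of 16 tested, 11 were called higher in long bone, 5 with no overlap, at a median of -5.50, while their summed level ran from 471 CPM in MHLBA3 to 37032 CPM in DPLBA3. COL2A1, the type II collagen of cartilage, stood at 5949 and 16693 CPM in DPLBA1 and DPLBA3 and at 1217 CPM in MHLBA1. In DPLBA2, MHLBA2 and MHLBA3 it stood at 41.5, 8.75 and 1.34 CPM, the last 2 near the pituitary range of 2.13 to 8.19 CPM. Its call (-8.92 ± 1.96, adjusted p = 0.0035) was lost without MHLBA1 (-8.21) and over the 9 libraries (-6.24 ± 3.59, adjusted p = 0.18). COL10A1, of hypertrophic cartilage, followed the same libraries from 0 to 676 CPM (-12.30 ± 2.33). CHAD, chondroadherin, and ACAN, aggrecan, kept all bone libraries above all pituitary libraries at 21.1 to 1973 CPM (-11.90 ± 1.27) and 8.97 to 2293 CPM (-9.21 ± 1.25).

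Osteoclast genes were called higher in long bone in 10 of 12 cases, at a median of -3.67 and of -4.32 over the 9 libraries. ACP5, tartrate-resistant acid phosphatase, stood at 55.9 to 1372 CPM with a median of 803 against 0.903 to 3.09 CPM (-8.80 ± 0.88, adjusted p = 2.5e-05). CTSK, the collagen-cleaving cathepsin, had a log2 fold change of -5.41 ± 0.77. The proteases of the matrix overlapped with this group. Of 14 matrix metalloproteinase genes 10 were higher in long bone and 2 in pituitary at a median of -3.64, with MMP9, made by osteoclasts and neutrophils, at 46.5 to 1618 CPM against at most 1.20 CPM (-10.39 ± 1.24) and MMP13, the collagenase of bone and hypertrophic cartilage, at 40.4 to 4039 CPM against 0.231 to 10.4 CPM (-9.12 ± 1.78). MMP17 and MMP24, both anchored to the membrane, were higher in pituitary (2.30 ± 0.61 and 4.02 ± 0.57). 

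Collagen genes went both ways. Of 40 tested, 24 were higher in long bone and 9 in pituitary, at a median of -2.69, and the counts were 24 and 9 again over the 9 libraries. The chains of basement membrane collagen IV divided. COL4A1 and COL4A2, its common chains, were higher in bone at 340.2 to 1037 CPM against 48.7 to 127 CPM (-3.13 ± 0.34) and 265 to 884 CPM against 36.4 to 111 CPM (-3.14 ± 0.34). The minor chains COL4A4, COL4A5 and COL4A6 were higher in pituitary with no overlap, at 2.60 ± 0.51, 3.03 ± 0.78 and 3.91 ± 0.70. COL4A3 (3.51 ± 1.21, adjusted p = 0.035) lost its call without any 1 of DPPA2, DPLBA1, DPLBA2, DPLBA3, MHLBA2 or MHLBA3 (2.85 to 3.55). The other pituitary-side genes were COL19A1 (4.07 ± 0.89), COL6A6 (3.16 ± 0.83), COL25A1, a neuronal membrane collagen (1.99 ± 0.50), COL7A1 (1.33 ± 0.38) and COL17A1 (2.79 ± 0.84), the last with no call without MHPA2 (2.49). The fibre-forming COL3A1 (-5.75 ± 0.99) and the microfibrillar COL6A3 (-5.42 ± 0.41) were among those higher in bone with no overlap.

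WNT ligands and their Frizzled receptors were mixed as well. Of 19 tested, 6 were higher in long bone and 3 in pituitary, while the median was 0.61, opposite in sign to the majority of the calls, and -1.24 over the 9 libraries with 8 and 4 calls. Over all genes and 12 libraries 14.6% were called higher in long bone and 17.1% in pituitary. WNT1, a driver of bone formation, had 268 reads in bone and none in pituitary and was at least 97.4-fold higher in bone. WNT10B, also osteogenic, stood at 4.47 to 35.1 CPM against at most 0.706 CPM (-6.31 ± 0.83), and FZD4, a Frizzled receptor of vessels, at 16.6 to 114 CPM against 6.40 to 14.5 CPM (-2.50 ± 0.42). FZD3, a receptor of axon guidance, was higher in pituitary at 12.1 to 44.2 CPM against 1.11 to 5.16 CPM (3.0 ± 0.42), as was WNT9A (1.78 ± 0.54). WNT3 had 80 reads in pituitary and 3 in bone, a ratio of 24.5 with a 95% counting interval of 8.08 to 121.

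Fat cell genes were read mostly in the bone libraries. Of 12 tested, 11 were called higher in long bone, 8 with no overlap, at a median of -6.89, or -6.0 with the 2 genes that had no pituitary read set at their lower bound. Over the 9 libraries it was 12 of 12. Members such as CIDEC, LEP and ADIPOQ passed the read filter through bone, so their direction was bound to follow. FABP4, the fatty acid carrier of adipocytes, stood at 805 to 5902 CPM with a median of 4403 in bone and at 0.516 to 2.66 CPM in pituitary (-11.81 ± 0.80, adjusted p = 2.9e-06). ADIPOQ, adiponectin, stood at 55.1 to 826 CPM against at most 0.172 CPM (-12.30 ± 1.01, adjusted p = 7.3e-06). CIDEC, a lipid droplet protein, had 18418 reads in bone and none in pituitary and was at least 6691-fold higher. PPARG, the master factor of fat cells, stood at 101 to 279 CPM against 1.36 to 4.74 CPM (-5.71 ± 0.43), and LEP, leptin, with 215 reads in bone alone, was at least 78.1-fold higher. MHLBA1 or DPLBA2 was the lowest bone library for each of these and for PLIN1, perilipin, at 35.6 to 411 CPM (-11.21 ± 1.05). Among the 10 largest folds of the bone side, those outside the list and the bone lists were of TUSC5, a glucose transport gene of fat (-11.81 ± 0.71), and FABP9, a fatty acid carrier with 1695 reads in bone and none in pituitary, at least 616-fold. By RPKM, IBSP, FABP4, COL1A2, SPP1 and SPARC were among the 12 highest genes called higher in bone, with G0S2, an inhibitor of fat breakdown (-6.13 ± 0.89), VIM, vimentin (-3.19 ± 0.43), ribosomal protein genes and FAM117A. The row named FAM117A stood at 3064 to 104482 CPM in bone and 152 to 363 CPM in pituitary (-6.48 ± 0.92) and took 9.48% of the reads of DPLBA2.

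Vessel and blood cell genes lay mostly on the bone side. Of 11 endothelial genes 10 were higher in long bone, 7 with no overlap, at a median of -2.26, among them PECAM1 at 232 to 1154 CPM against 55.9 to 102 CPM (-2.97 ± 0.38, adjusted p = 0.00012), VWF (-2.87 ± 0.37) and CDH5 (-2.86 ± 0.44), genes of the endothelial surface, clotting and junctions. Of 13 T and NK cell genes 10 were higher in long bone at a median of -2.44, with CD3E, of the T cell receptor complex, at 9.82 to 25.0 CPM against 2.27 to 5.03 CPM (-2.18 ± 0.30, adjusted p = 0.0002). Of 9 B cell genes 6 were higher in bone, and of 3 megakaryocyte genes 2, beside 14.6% of all genes. In DPs alone it was 8 of 11 and 4 of 4, beside 17.2% of all genes. In MHs alone it was 1 of 3 and 0 of 2, beside 7.24%. Megakaryocyte sums overlapped between MH bone, at 9.72 to 11.6 CPM, and pituitary, at 5.02 to 10.8 CPM. Over both breeds macrophage genes were not one-sided. CX3CR1 (3.69 ± 0.62) and P2RY12 (3.03 ± 0.73), receptors known from microglia of the brain, were higher in all 6 pituitary libraries. CD68, a lysosomal protein of macrophages and osteoclasts, was higher in bone at 45.1 to 395 CPM against 10.8 to 24.4 CPM (-3.52 ± 0.45). In all, 2 of 10 were called in each direction, beside 17.1% of all genes higher in pituitary and 14.6% in long bone. In DPs alone 6 were higher in long bone and 2 in pituitary at a median of -1.75, where 17.2% and 17.3% of all genes were. In MHs alone 1 was higher in long bone and 2 in pituitary at a median of 0.67, beside 7.24% and 8.13% of all genes. Red cell genes were called in 1 of 6 cases, SPTB, a spectrin also of neurons, on the pituitary side (2.06 ± 0.41), and over the 9 libraries 1 was called in each direction, while HBB, beta globin, reached 136 CPM in DPLBA2 alone and at most 3.93 CPM elsewhere. The share of all genes called in either direction was 31.7%. Striated muscle genes were higher in bone in 3 of 10 cases, beside 14.6% of all genes, with a summed 512 CPM in MHLBA3.

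Neutrophil and cell division genes had their highest summed levels in DP long bone. This was not particular to them. B cell sums were 69.0 to 207 CPM in DP bone against 37.8 to 55.0 CPM in MH bone, and megakaryocyte sums 41.7 to 63.5 CPM against 9.72 to 11.6 CPM. Macrophage sums were 1173 to 2032 CPM against 289 to 773 CPM, and T and NK cell sums 102 to 181 CPM against 77.1 to 89.8 CPM. Endothelial sums overlapped, at 1330 to 1769 CPM against 1086 to 3264 CPM. Of 13 neutrophil genes 9 were called higher in long bone at a median of -2.69. In DPs alone all 13 were called higher in long bone, where 17.2% of all genes were. In MHs alone 0 of 10 was called in bone and 1 in pituitary, beside 7.24% and 8.13% of all genes. Their sum stood at 1474 to 2201 CPM in DP long bone, at 40 to 158 CPM in MH long bone and at 43.5 to 115 CPM in pituitary, so that bone and pituitary overlapped in MHs. LTF, lactoferrin of neutrophil granules, stood at 541 to 910.1 CPM in DP bone and 0.297 to 38.0 CPM in MH bone (-7.77 ± 1.25, adjusted p = 0.0005). MPO, myeloperoxidase, stood at 148 to 199.8 CPM and 0.184 to 11.9 CPM (-7.40 ± 1.38). Of 22 cell cycle genes 17 were called higher in bone at a median of -1.82. In DPs alone 19 of 22 were, beside 17.2% of all genes, and in MHs alone 1 of 20, beside 7.24%. Fewer calls in MHs alone were not particular to these lists. Of 16 granule genes 13 were called higher in pituitary in DPs alone and 2 in MHs alone. Of 15 osteoblast and osteocyte genes, by contrast, 15 were called higher in long bone in DPs alone and 13 in MHs alone. MMP8 and CYBB of the neutrophil list were called in the test of the breed by tissue interaction and no cell cycle gene was, so a breed difference was not shown for the cell cycle genes. Their sum was 898 to 1221 CPM in DP bone, 334 to 544 CPM in MH bone and 248 to 371 CPM in pituitary. TOP2A, a topoisomerase of dividing cells, stood at 53.5 to 113 CPM in DP bone, 4.60 to 26.3 CPM in MH bone and 0.887 to 13.6 CPM in pituitary (-3.49 ± 0.63, adjusted p = 0.0011).

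Where the receptor side of the growth hormone axis differed between the tissues, it was higher in bone. Of 14 tested genes downstream of the hormone, 6 were called higher in long bone, all with no overlap, none was called higher in pituitary, and the median was -1.01. GHR, the growth hormone receptor, stood at 19.2 to 37.3 CPM with a median of 21.8 in pituitary. In long bone it stood at 63.9 to 301 CPM with a median of 192. Every bone library lay above every pituitary library, DPLBA2 being the lowest of bone, and the log2 fold change was -2.89 ± 0.40 (edgeR, Benjamini-Hochberg adjusted p = 0.0002). JAK2, the kinase bound to the receptor, stood at 44.1 to 65.8 CPM against 88.0 to 270.4 CPM (-1.68 ± 0.25, adjusted p = 0.00033), and STAT5A, the factor it activates, at 9.28 to 14.3 CPM against 24.4 to 58.6 CPM (-1.70 ± 0.23, adjusted p = 0.00018). IGF1, the local growth factor, stood at 0.376 to 2.13 CPM against 7.78 to 31.7 CPM (-4.05 ± 0.46, adjusted p = 5.3e-05). IGFBP4, which binds and restrains IGFs, had a log2 fold change of -3.14 ± 0.54, and SOCS3, a feedback inhibitor of the receptor, of -3.14 ± 0.68 at no more than 3.19 CPM in any library. The receptors IGF1R and IGF2R, STAT5B, CISH and the binding protein genes IGFBP2, IGFBP3, IGFBP-5 and IGFBP6 were not called. Their log2 fold changes ran from -1.11 ± 0.45 for IGF1R to 1.18 ± 0.79 for IGFBP-5, and leaving out MHLBA2 gave a call for IGF1R (-1.24) and leaving out MHPA1 one for IGFBP-5 (1.61), which was also called over the 9 libraries (1.67). In DPs alone IGFBP2 (-3.05) and IGFBP-5 (2.45) were called, while in MHs alone they stood at 1.21 and -0.13 without a call. IGFBP4 (-2.16) and SOCS3 (-1.58) had no call in MHs alone. IGF1R stood at 359 CPM in MHLBA1 and at most 68.4 CPM in the other 5 bone libraries.

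HOX genes, which set position along the body axis, were read in bone and hardly at all in pituitary. Of 33 HOX genes listed, 17 passed the read filter and were tested. Because they passed it on their bone levels, the direction of those 17, all higher in long bone, was bound to follow. The median was -6.69, or -6.15 with the 3 genes that had no pituitary read set at their bound, and 16 showed no overlap. HOXD9 had no read in any pituitary library and stood at 1.89 to 6.60 CPM in bone, at least 187-fold higher. HOXB6 had 1 pituitary read, and its bone to pituitary ratio was 862 with a 95% counting interval of 154 to 34092. The highest levels were of HOXD8 at 14.0 to 51.4 CPM against at most 1.08 CPM (-6.15 ± 0.77) and HOXA10 at 3.70 to 47.3 CPM against at most 1.60 CPM (-6.05 ± 0.92, adjusted p = 0.00034). MHLBA1 was the lowest bone library for both, and for 15 of the 17. The HOXC genes stood apart in a way noticed only after their values were seen. HOXC9 was at 6.02, 11.6 and 11.9 CPM in MH long bone and at 0.101 CPM or less in DP long bone and pituitary alike. HOXC10 stood at 1.03 to 6.25 CPM, HOXC6 at 2.46 to 3.41 CPM and HOXC8 at 1.78 to 2.50 CPM in MH long bone, against at most 0.151 CPM in DP long bone and 0.219 CPM in pituitary. None of these 4 genes passed the read filter of the test over both breeds, since they were read almost only in the 3 MH long bone libraries. The values are therefore a description. None of the 4 was among the genes called for the breed by tissue interaction.

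**Figure D4:**
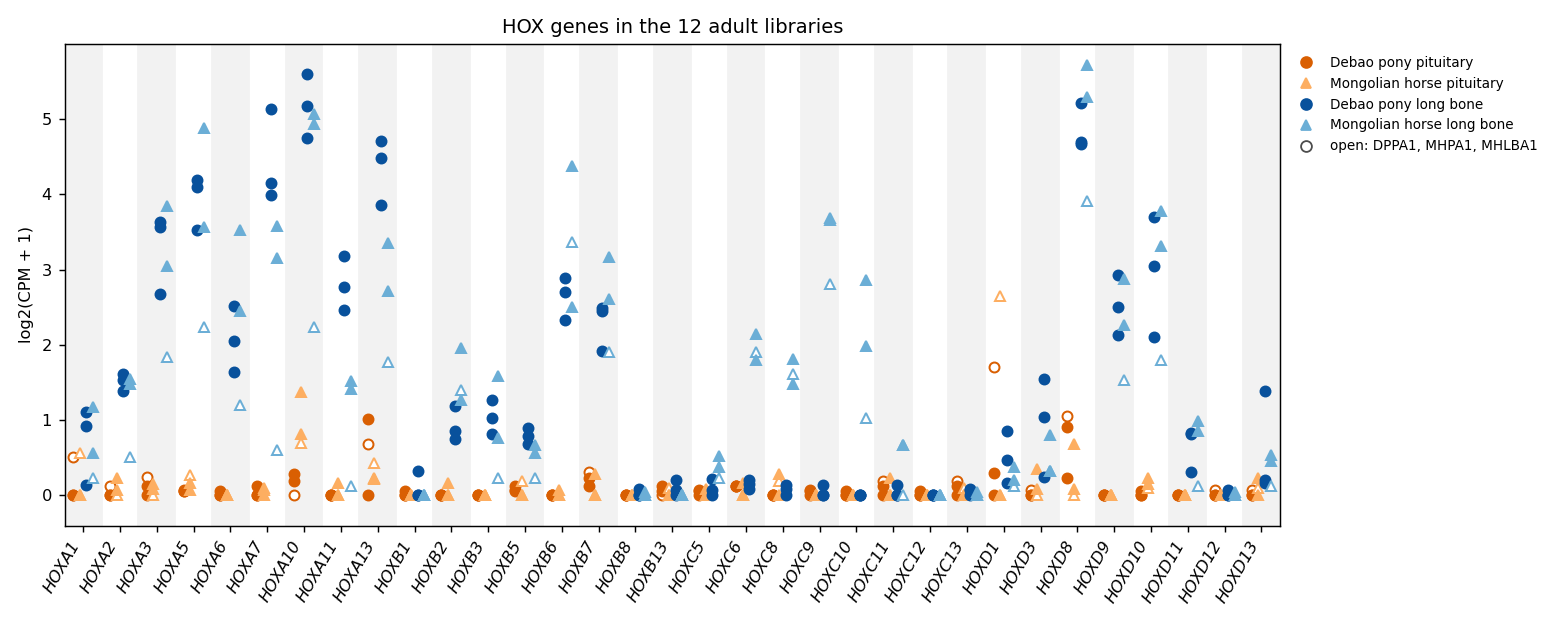
Level of 33 HOX genes in each of the 12 libraries as log2(CPM + 1), by tissue and breed, with DPPA1, MHPA1 and MHLBA1 drawn open. The HOXA, HOXB and HOXD genes with reads are up in the long bone libraries of both breeds, while HOXC6, HOXC8, HOXC9 and HOXC10 stand clear of 0 in the 3 MH long bone libraries, where HOXC9 reached 11.9 CPM, and stay at 0.151 CPM or less in the 3 DP ones.

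Among genes of general cell functions the lists differed. Of 53 oxidative phosphorylation genes of the nucleus 1 was called higher in long bone and none in pituitary, at a median of 0.08. Mitochondrially encoded genes were called higher in pituitary in 5 of 13 cases at a median of 0.99, in 1 of 13 over the 9 libraries, and in 9 of 13 without TMM scaling and with limma at both pseudocounts. Of 64 ribosomal protein genes 22 were called higher in long bone and 1 in pituitary, at a median of -0.84, but without TMM scaling it was 3 and 1 at -0.53, and over the 9 libraries 2 and 2 at -0.57. RPS20 (-1.29 ± 0.28) and RPS19 (-1.06 ± 0.22) were among the 12 highest bone genes, and RPS19 lost its call without DPPA1 (-0.96) or DPLBA3 (-0.99). Over the 9 libraries neither RPS20 (-0.99) nor RPS19 (-0.86) was called. RPL7A, at 18.2 to 59.7 CPM against 5.19 to 23.7 CPM (1.83 ± 0.35), was the gene on the pituitary side, and counts of such genes are uncertain because near-identical copies share reads. ER chaperone genes, of the folding machinery of secretory cells, were called higher in pituitary in 2 of 16 cases at a median of 0.48 and in 6 of 16 over the 9 libraries at 0.81. The shares of all genes were 17.1% and 18.5%, so the count over all 12 libraries was not above the general share. DNAJB9, an ER co-chaperone, stood at 27.6 to 155 CPM against 10.6 to 23.4 CPM (2.43 ± 0.36, adjusted p = 0.0003). Immediate early genes were higher in bone in 3 of 12 cases, beside 14.6% of all genes. The highest genes by RPKM whose 95% interval stayed inside -1 to 1 were FAU, EEF1B2, NAP1L1, HNRNPA2B1 and NCL, of translation, chromatin and RNA binding, with log2 fold changes from -0.37 ± 0.26 for FAU to 0.13 ± 0.30 for NCL.

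Whether the tissue difference itself differed between DPs and MHs was asked with an interaction term. Of 15474 genes 18 were called (0.116%), 14 (0.0905%) with a more bone-sided difference in DPs and 4 (0.0258%) with a more pituitary-sided one, at adjusted p from 0.0092 to 0.047 (edgeR, Benjamini-Hochberg). ITGB2, the beta chain of leukocyte integrins, stood at 158 to 202 CPM in DP long bone and 16.2 to 35 CPM in MH long bone, and at 7.9 to 21.7 CPM in pituitary of both breeds (difference -3.52 ± 0.44). PADI4, which citrullinates histones in neutrophils, stood at 28.2 to 61.7 CPM in DP bone, at least 960-fold above DP pituitary, where it had no read. In MHs it stood at 0.662 to 1.72 CPM in bone and 0.296 to 0.756 CPM in pituitary. MMP8, the neutrophil collagenase (-6.75), MMP25 (-5.89), CYBB, the catalytic subunit of the phagocyte oxidase (-4.14), ECATH-3, an antimicrobial cathelicidin (-4.71), CORO1A (-2.99), SERPINB1, an inhibitor of neutrophil proteases (-4.62), NLRC4 (-3.37) and NAPSA (-6.22) also had negative differences, as did 2 genes without a symbol, ENSECAG00000014585 (-5.12) and ENSECAG00000015010 (-4.77). STAB2, a scavenger receptor of sinus endothelium, differed in both tissues, at 17.3 to 33.7 CPM in DP bone, 7.91 to 9.94 CPM in MH bone, 0.471 to 0.989 CPM in DP pituitary and 7.35 to 12.7 CPM in MH pituitary (-5.34 ± 0.56, adjusted p = 0.0092).

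**Figure D5:**
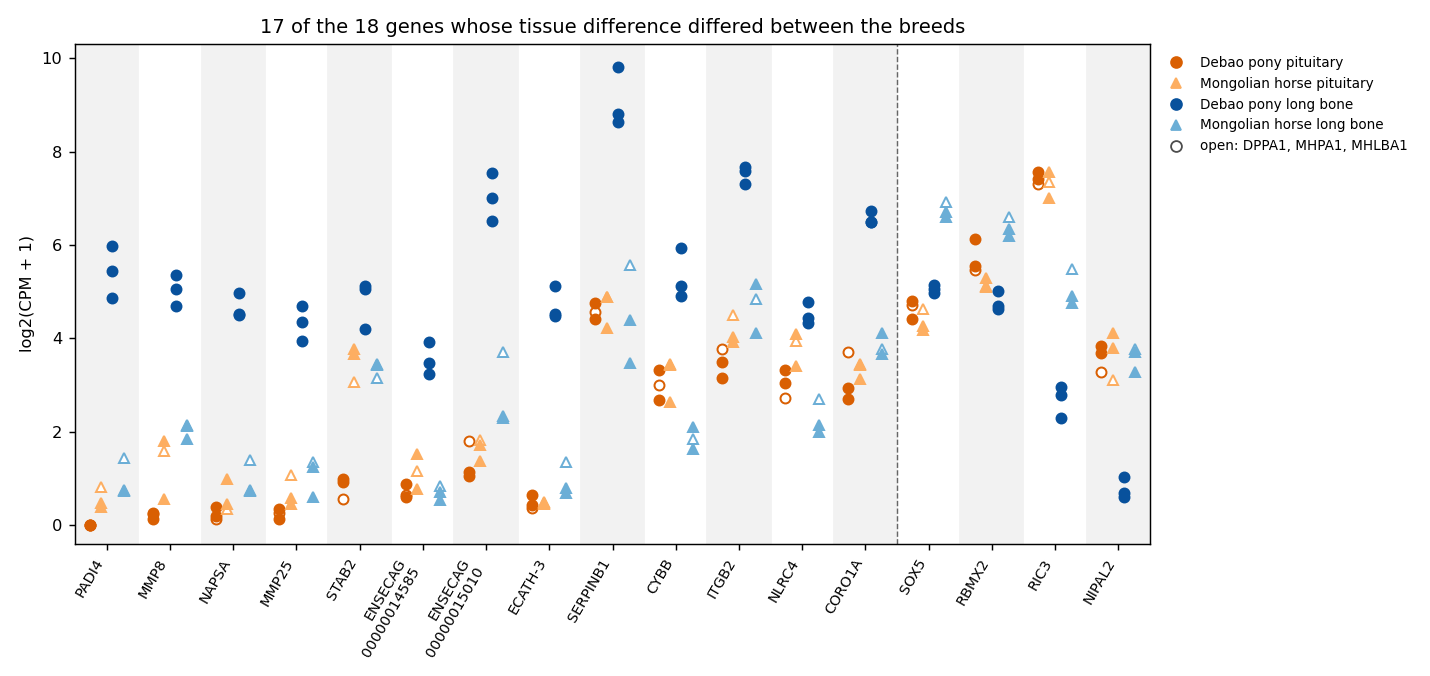
Level of 17 of the 18 genes of the breed by tissue interaction in each library as log2(CPM + 1), by tissue and breed, with DPPA1, MHPA1 and MHLBA1 drawn open. Left of the dashed line are 13 genes with a negative difference, for which the 3 DP long bone points lie above all others, and right of it the 4 with a positive difference, for which DP long bone lies below MH long bone.

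The 4 genes of the other direction were lower in DP long bone than in MH long bone. SOX5, a factor of cartilage formation, stood at 30.3 to 34.0 CPM in DP bone and 96.0 to 120 CPM in MH bone, with 17.2 to 26.9 CPM in pituitary (2.02 ± 0.28, adjusted p = 0.03). RIC3, a chaperone of acetylcholine receptors, stood at 3.86 to 6.80 CPM in DP bone, 26.0 to 43.6 CPM in MH bone and 127 to 189 CPM in pituitary (2.68 ± 0.39). RBMX2 (2.21 ± 0.32) and NIPAL2 (3.83 ± 0.56), a spliceosome factor and a magnesium transporter homologue, completed the group. The number of calls rested on single libraries. Without MHLBA3 15 genes were called with a more bone-sided difference in DPs and 6 with a more pituitary-sided one. The number was 8 without DPPA1, 3 without DPPA2, 3 without DPPA3, 7 without MHPA1, 4 without MHPA2 and 26 without MHPA3. It was 4 without DPLBA1, 4 without DPLBA2, 0 without DPLBA3, 35 without MHLBA1 and 32 without MHLBA2. Over the 9 libraries it was 104, and all 18 genes kept their sign there with adjusted p from 0.010 to 0.043. Those 9 are part of the 12 libraries that gave the 18 genes, so this is no replication.

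Against the juvenile libraries no gene was called for a tissue difference that changed with age. Among 16131 genes over all 24 libraries, edgeR called 0 (0%), with 1168 genes at an unadjusted p under 0.05 and a lowest adjusted p of 0.46, and DESeq2 called 31. Without DPPA1, MHPA1 and MHLBA1 edgeR called 59. That choice took out the adult pituitary libraries poor in hormone genes and rich in glial genes while all juvenile libraries stayed in, so the 59 are a description. POU1F1 had 0, 3 and 0 reads in the juvenile MH pituitary libraries and 2954 to 4263 reads in those of juvenile DPs. The log2 difference of adult minus juvenile for CNP and MBP, both myelin genes named after their values were seen, went from -0.016 and 0.17 over all libraries to -2.56 and -3.74. That of POU1F1 went from 5.94 (adjusted p = 0.66) to 6.42 ± 1.20, and that of ESR1, the estrogen receptor, from 2.23 (adjusted p = 0.64) to 2.67 ± 0.35.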

How the data were processed

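RNA-seq of ribosomal RNA-depleted RNA was deposited as 2 tables over 24 libraries, raw read counts per gene and RPKM. The labels say that the authors used bcl2fastq, TopHat2 and edgeR, while the study's methods name other mapping and counting software, so the mapper behind the deposited counts is not certain here. Directional libraries were made, and the strand setting of the counting is not given in the sources used here. The deposited RPKM values are the authors' own, scaled to gene length and library size. They matched the counts within 2% except for 238 of 8885 genes in DPLBA2. In 25 rows a symbol had been turned into a date.

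Counts of 12 adult libraries, 3 per group, were scaled by TMM, filtered with filterByExpr (minimum count 10) and fitted by the quasi-likelihood test of edgeR 4.0.16 in R 4.3.3, with breed and tissue as terms. P-values were adjusted by Benjamini-Hochberg over all genes. Interactions of tissue with breed (12 libraries) and stage (24) were fitted likewise. DESeq2 1.42.0 and limma 3.58.1 on log2(RPKM + 1) or log2(RPKM + 0.1) were alternatives. The script was tested on simulated counts. CPM levels count reads per gene, not per length. The counting intervals of read ratios and the bounds cover counting error only. A count of 0 was taken to allow 3 reads over a tissue's libraries. The p-values measure the spread between these libraries.

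The comparison and the 33 gene lists were chosen with earlier results of these data known, and 3 further lists (pancreas, choroid plexus, mitochondrial genome) after these values were seen. Named genes were, among called genes with a symbol and no overlap of libraries, the 12 with the highest mean RPKM and the 10 with the largest fold in each direction, then list members by role, the 5 highest genes with a 95% interval inside -1 to 1, the 8 lowest p-values of each interaction, and the growth hormone genes. COL1A1, LHB, S100A8 and ELANE were not analysed here, and some genes that the rule names are not reported here. No label pairs the tissues by replicate number, so no pairing was used. Deviations of same-numbered libraries from their group means correlated at 0.017 to 0.094 in DPs and -0.051 to 0.008 in MHs. For libraries of different numbers the values were -0.064 to 0.016 in DPs and -0.067 to 0.047 in MHs. Correlations this weak, between different tissues, can neither show nor exclude a pairing.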

Additional observations from a re-analysis of the deposited data

Results flagged for a closer look

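For 33 gene lists, or 66 sets of 6 libraries, the summed level in 1 library stood far from the other 5 in 13 sets, and for the 3 lists added after these values were seen in 3 of 6 sets. Chance gives about 1 in 20, but the lists share genes and libraries and were chosen with results of these data known, so the counts are descriptions. In pituitary DPPA1 was high for posterior lobe hormone genes (1076 CPM), neuronal genes (6988 CPM), GABA and glutamate receptor genes (1802 CPM) and T and NK cell genes (54.2 CPM). MHPA1 was high for myelin genes (18299.9 CPM), choroid plexus genes (10651 CPM), motile cilia genes (1208 CPM) and osteoblast and osteocyte genes (2253 CPM). In long bone MHLBA1 was high in CPM for pancreas genes (335519 CPM), pituitary transcription factors (114 CPM), potassium channel genes (623 CPM) and motile cilia genes (56.9 CPM). As an unscaled share of reads it was not the highest bone library for 2 of these lists. Pituitary transcription factors took 0.0068% in MHLBA1 and 0.0079% in MHLBA3, and motile cilia genes 0.0034% in MHLBA1 and 0.0037% in MHLBA2. DPLBA3 was high for anterior pituitary hormones (77.6 CPM) and low in CPM for genes of the mitochondrial genome (34586 CPM). As a share of reads the mitochondrial genes were lower in MHLBA1, at 3.08% against 3.16% in DPLBA3. DPLBA2 was high for erythroid genes (236 CPM) and MHLBA3 for striated muscle genes (512 CPM).

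The tissue difference of 18 genes, 17 of them given here, differed between DPs and MHs by the interaction term, as a log2 difference of DPs minus MHs. It was negative for PADI4 (-11.61), MMP8 (-6.75), NAPSA (-6.22), MMP25 (-5.89), STAB2 (-5.34), ENSECAG00000014585 (-5.12), ENSECAG00000015010 (-4.77), ECATH-3 (-4.71), SERPINB1 (-4.62), CYBB (-4.14), ITGB2 (-3.52), NLRC4 (-3.37) and CORO1A (-2.99). It was positive for NIPAL2 (3.83), RIC3 (2.68), RBMX2 (2.21) and SOX5 (2.02). PADI4 had no read in DP pituitary, so its -11.61 is not a measured size. Its level in DP bone was at least 960-fold that in DP pituitary.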

How the results depend on the processing

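Leaving out 1 library at a time gave 2401 to 2855 genes higher in pituitary and 2034 to 2432 higher in long bone. MHs alone gave 1153 and 1027, and limma on log2(RPKM + 1) gave 1449 higher in long bone. The breed by tissue interaction called 2087 genes by unadjusted p, 28 without TMM, 831 with DESeq2, 207 and 97 with limma at pseudocounts of 1 and 0.1, 104 without DPPA1, MHPA1 and MHLBA1, and 0 to 35 without 1 library. The stage by tissue interaction called 636 by unadjusted p, 31 with DESeq2 and 59 without those 3 libraries. Because no label pairs the libraries by replicate number, the fit with that number as a block stands only here. The block fit called 2511 genes higher in pituitary, 2114 higher in long bone and 0 in each interaction. The causes were not tested.

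Of 3780 pairs of 166 single genes and settings, 3619 kept direction and call, 112 lost the call, 24 gained one and 25 turned direction, all of genes without a call. HNRNPA2B1 turned to 0.22 without TMM, 0.19 with limma at both pseudocounts, 0.21 in DPs alone and 0.0685 without the 3 libraries, and ranged from -0.15 to 0.15 without 1 library. NAP1L1 turned to 0.11 without TMM and 0.0891 and 0.0893 with limma, and EEF1B2 to 0.0098 without TMM and 0.0254 without the 3 libraries. IGFBP6 turned to 0.0111 without TMM, 0.42 and 0.46 with limma, 0.26 with the block and 0.65 in MHs alone, and ranged from -0.47 to 0.46 without 1 library. NCL turned to -0.40 in MHs alone and ranged from -0.00593 to 0.30 without 1 library. In MHs alone IGFBP2 turned to 1.21 and IGFBP-5 to -0.13, and CISH to -0.00865 with the block. Depth limits genes with few reads, and 3 libraries per group limit both interactions.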

Other observations

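The genes with the lowest p-values for a tissue difference that changed with age, adult minus juvenile, did not pass the test (edgeR, Benjamini-Hochberg adjusted p from 0.46). DPYS, a pyrimidine-degrading enzyme, had a log2 difference of -7.89, GPR18 of 4.09 and STAB2 of -2.31. MFSD4, TBCEL, CCDC82 and ZFAND6 had log2 differences of -1.81, 1.71, 1.1 and 1.07. TTR, transthyretin of the choroid plexus, stood at 9620 CPM in MHPA1 and, in long bone, at 68.4 and 94.6 CPM in MHLBA1 and MHLBA2. It was named after its values were seen.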
